A study of Rattus norvegicus with 14 samples.

Results

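The cytochrome P450 genes outside testicular steroid synthesis were taken as every row of the count table whose gene name starts with Cyp followed by a family number, a subfamily letter and a gene number. The rows of Cyp11a1, Cyp17a1, Cyp1a1 and Cyp26b1 were set aside by the same rule, and Cyp1b1, which the rule also sets aside, was not analysed here. This left 52 rows of the 18174 genes in the table. They carry 51 symbols, because Cyp4a2 has 2 rows (ENSRNOG00000064139 and ENSRNOG00000066487) whose estimated counts are nearly identical.

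Fetal testes came from Harlan Sprague Dawley rat dams that received dicyclohexyl phthalate (DCHP), a phthalate ester plasticizer, in corn oil by gavage from gestational day 14 to 18. The 5 groups were a corn oil vehicle (0 mg/kg/day) and DCHP at 100, 300, 600 and 900 mg/kg/day, with 3 litters each and 2 litters at 900 mg/kg/day. All remaining testes of a litter, less 3 kept back for a testosterone assay, were combined on gestational day 18, so each of the 14 libraries is 1 litter. Expression was read by TempO-Seq, in which short DNA probes that meet on an RNA are joined and then sequenced.

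Cytochrome P450 enzymes are heme proteins that insert an oxygen atom into lipids, hormones, vitamins and foreign chemicals. Those of the endoplasmic reticulum receive electrons from the reductase Por and from cytochrome b5, and those of mitochondria receive them from the ferredoxin Fdx1. The liver expresses many of the drug-metabolising members strongly, whereas the testis is known mainly for the steroid-synthesising P450 enzymes of its Leydig cells. In rodent liver several phthalates and related compounds are known to induce the Cyp4a genes through the nuclear receptor PPARA, and the Cyp2b and Cyp3a genes through the receptors CAR and PXR.

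Levels are given as CPM, counts scaled to TMM-adjusted library totals, and as mean ± SD over litters. Sums over cell type markers are scaled to plain library totals instead. Libraries held 5558873 to 11272861 estimated counts. Probes differ in efficiency, so CPM ranks different genes only roughly. Markers of Sertoli cells (6 of 6), fetal Leydig cells (5 of 5) and germ cells (3 of 4, without Dazl) were at 1 CPM or more in every vehicle litter, whereas none of the 4 liver genes in the table (Alb, Afp, Apoa1 and Fgb) was. Also at that level were 3 of 3 endothelial, 1 of 3 peritubular and 1 of 3 macrophage markers. Of the markers of other organs in the table, 1 of 2 for adrenal cortex, 1 of 4 for kidney and mesonephros and 1 of 2 for ovary reached it. In pooled testes, fewer cells of a type and less RNA per cell cannot be told apart. The p-values set each difference against the spread between litters, which with 1 library per litter also holds technical variation.

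Of the 52 P450 genes, 15 were expressed in vehicle testis, defined as at least 1 CPM in each of the 3 vehicle litters. This was 28.8% of them, against 11036 genes or 60.7% of the whole table. The 15 genes held 90.2% of all counts that fell on the P450 set. Expression divided by enzyme class. Of the 23 drug-metabolising enzymes of families 1 to 3, 3 were expressed (Cyp2d4, Cyp2e1 and Cyp2f4). Of the 7 other enzymes of family 2, 4 were expressed (Cyp2t1, Cyp2s1, Cyp2u1 and Cyp2j4), and of the 12 fatty acid hydroxylases of family 4 also 4 (Cyp4f39, Cyp4v3, Cyp4f6 and Cyp4f4). Cyp27a1 and Cyp46a1 were expressed of the 4 bile acid and oxysterol enzymes, Cyp2r1 of the 3 vitamin D enzymes, and the orphan gene Cyp20a1. Cyp19a1, the aromatase that makes oestrogens, and Cyp26c1, a retinoic acid hydroxylase, were not: their highest levels in any library were 0.918 and 0.714 CPM.

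**Figure D1:**
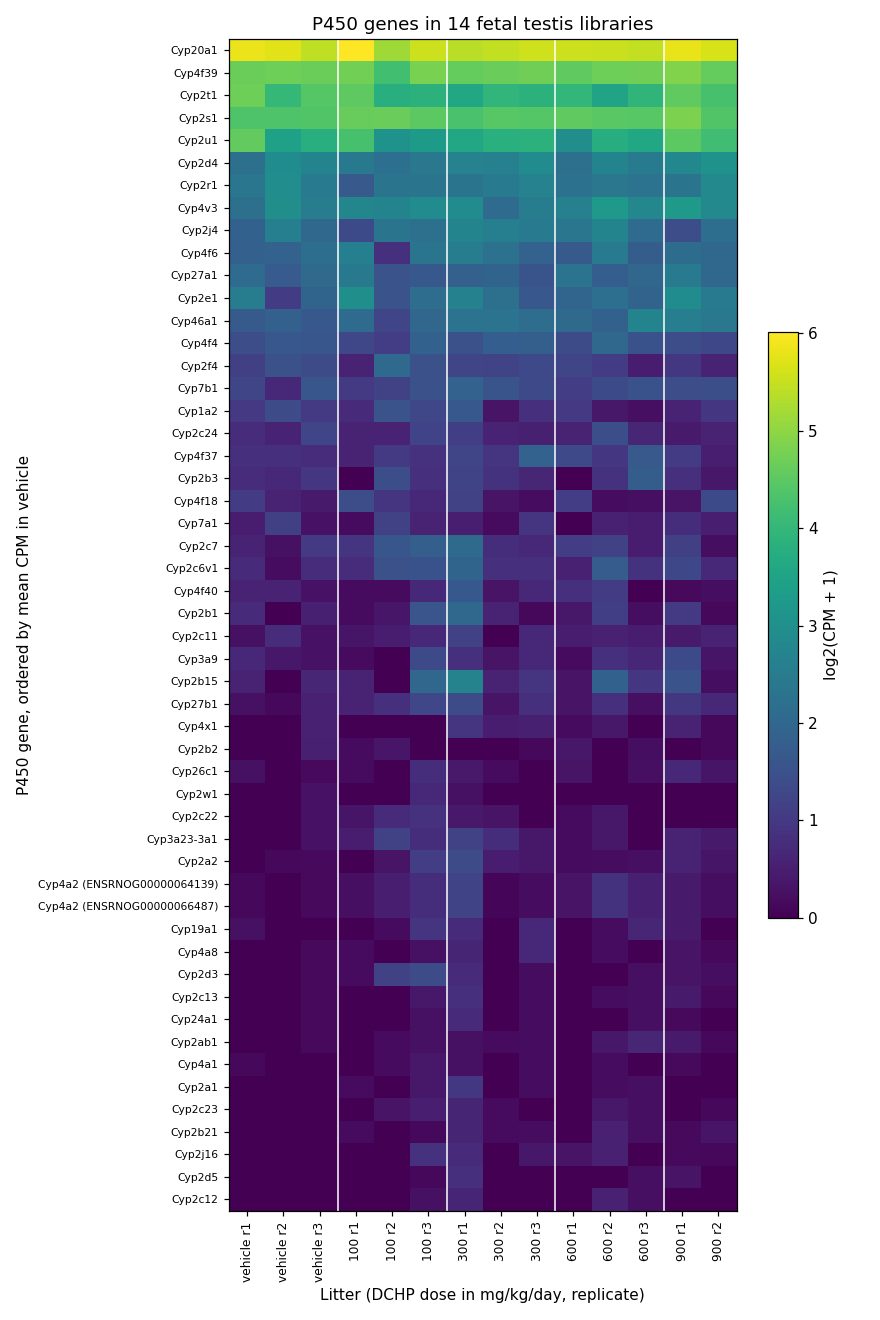
Level of each of the 52 P450 genes (rows, ordered by mean vehicle CPM) in each of the 14 litters (columns, grouped by DCHP dose in mg/kg/day), as log2(CPM + 1) on the colour scale. The 15 genes expressed in vehicle form the upper rows in every dose group, and the lower rows are brightest in replicate 3 at 100 mg/kg/day and replicate 1 at 300 mg/kg/day.

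The expressed genes were nearly the same at each dose. By the same rule 13 genes were expressed in all 5 groups. Cyp7b1, which hydroxylates oxysterols and androgen metabolites, reached 1 CPM in every litter of each treated group but not in vehicle replicate 2 (0.597 CPM), which brought the genes expressed in any group to 16. Cyp2f4 was under 1 CPM in at least 1 litter at 100, 600 and 900 mg/kg/day, and Cyp4f6 in 1 litter at 100 mg/kg/day (0.762 CPM). The genes just outside the vehicle threshold were Cyp7b1 (mean 1.35 CPM) and Cyp1a2, an enzyme induced through the aryl hydrocarbon receptor, whose vehicle litters stood at 0.993, 1.59 and 1.03 CPM. The genes just inside it were Cyp4f4 (1.69, 2.09 and 2.06 CPM) and Cyp2f4 (1.19, 1.79 and 1.60 CPM). Another 6 genes had no count in any vehicle litter: Cyp2a1, Cyp2c23, Cyp2b21, Cyp2j16, Cyp2d5 and Cyp2c12. A count of 0 over the vehicle group allows a level of up to 0.104 CPM (3 counts over the group). Such limits and intervals on counts cover counting error only, since sequenced copies are not independent molecules.

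The promoters of expressed and unexpressed P450 genes were set side by side for base composition. The RefSeq sequence table for rat build GRCr8 gives 250 bases before to 50 after each gene's start, and it holds 1 entry for 36 of the 52 genes, of which 12 were expressed. Of the others, 10 have no entry, 4 have 2 entries each and the 2 Cyp4a2 rows share a symbol, so they were left out. The expressed genes Cyp2r1, Cyp4v3 and Cyp4f4 were among those left out. The 12 expressed genes had a median of 10.5 CpG dinucleotides in the 300 bases (1 to 36), and the 24 genes not expressed had a median of 2 (0 to 8). The median was 7 over all 33469 promoters of the table, 21 over the 7588 named genes at 1 CPM or more in every vehicle litter, and 8 over the 3607 other named genes of the count table. The highest count among the 24 unexpressed promoters was 8, and 9 of the 12 expressed promoters had more. Cyp4f39, Cyp2e1 and Cyp2f4 were expressed with 7, 1 and 1. This divides the genes at a value taken from these same counts, so it is no test of a separation. The share of other promoters above that value was not counted. The motif TATAAA, searched on both strands, was in 1 of 12 expressed (8.33%) and 12 of 24 unexpressed promoters (50%), against 4760 of all 33469 promoters. GGGCGG, searched on both strands and itself holding a CpG, was in 8 of 12 (66.7%) and 2 of 24 (8.33%), against 33.1% of all. TGACCT, a hexamer read by many nuclear receptors, was in 4 of 12 and 8 of 24, which is 33.3% of each, against 16.2% of all promoters. Genes in general differed by expression too: among the named genes at 1 CPM or more in every vehicle litter and the other named genes, GGGCGG was in 64.0% and 37.1%, TATAAA in 6.25% and 14.5%, and TGACCT in 11.1% and 16.5%. These are descriptions of letters in 1 window per gene, and no test was made.

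The promoters of 4 genes show this contrast, printed on the strand of the gene with CpG dinucleotides and TATAAA or its reverse complement TTTATA in capitals. Cyp20a1 (GRCr8 chr9:69249623-69249922, plus strand, 26 CpG) was the most abundant P450 gene, and Cyp46a1 (chr6:133011740-133012039, plus strand, 36 CpG) had the smallest trend p. Cyp2e1 (chr1:205269717-205270016, plus strand, 1 CpG) was an exception, expressed with a TATAAA and few CpG. Cyp2c11 (chr1:246174966-246175265, plus strand, 0 CpG), the male-specific steroid hydroxylase of adult rat liver, stayed under 1 CPM in every vehicle litter.
Cyp20a1: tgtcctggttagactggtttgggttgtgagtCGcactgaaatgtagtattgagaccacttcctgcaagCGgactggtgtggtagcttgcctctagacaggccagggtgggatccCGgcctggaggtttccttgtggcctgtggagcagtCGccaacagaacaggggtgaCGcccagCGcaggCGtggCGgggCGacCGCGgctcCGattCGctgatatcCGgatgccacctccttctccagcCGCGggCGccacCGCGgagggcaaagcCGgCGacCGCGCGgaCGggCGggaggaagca
Cyp46a1: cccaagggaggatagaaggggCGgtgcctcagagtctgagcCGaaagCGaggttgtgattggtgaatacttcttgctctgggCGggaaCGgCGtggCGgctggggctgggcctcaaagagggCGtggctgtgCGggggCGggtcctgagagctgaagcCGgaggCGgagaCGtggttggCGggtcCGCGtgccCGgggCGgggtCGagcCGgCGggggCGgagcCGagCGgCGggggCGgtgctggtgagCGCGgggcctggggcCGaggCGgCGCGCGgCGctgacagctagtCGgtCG
Cyp2e1: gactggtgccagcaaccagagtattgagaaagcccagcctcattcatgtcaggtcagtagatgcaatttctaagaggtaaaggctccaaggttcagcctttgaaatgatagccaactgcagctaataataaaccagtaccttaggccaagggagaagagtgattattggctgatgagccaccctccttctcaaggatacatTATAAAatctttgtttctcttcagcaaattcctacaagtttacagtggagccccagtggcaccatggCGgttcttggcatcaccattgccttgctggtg
Cyp2c11: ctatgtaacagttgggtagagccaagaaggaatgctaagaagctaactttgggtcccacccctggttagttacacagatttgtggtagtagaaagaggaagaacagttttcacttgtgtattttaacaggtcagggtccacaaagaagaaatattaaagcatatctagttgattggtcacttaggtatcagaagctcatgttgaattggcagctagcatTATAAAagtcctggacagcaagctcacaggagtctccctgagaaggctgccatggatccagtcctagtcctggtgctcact
The capitals crowd the first 2 windows and are nearly absent from the last 2, apart from the TATAAA that stands before the start in both.

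**Figure D2:**
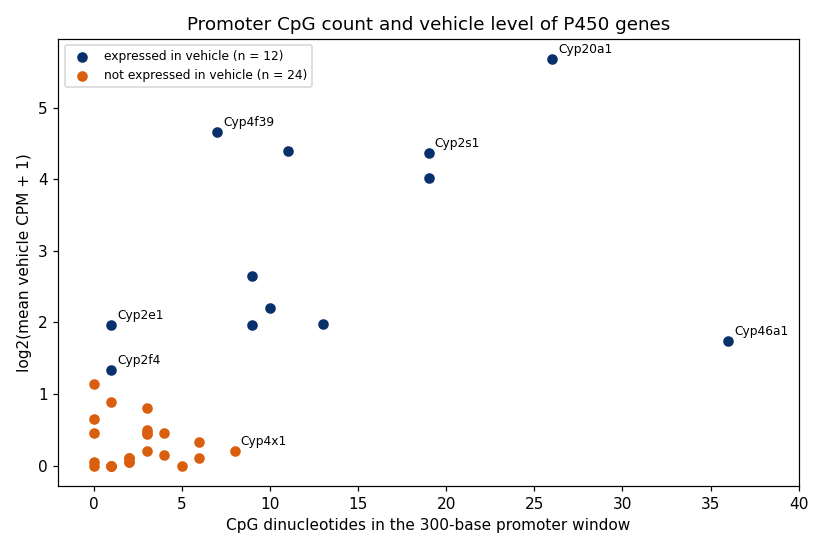
CpG dinucleotides in the 300-base promoter window (x axis) against the mean vehicle level as log2(CPM + 1) (y axis) for the 36 P450 genes with 1 promoter entry, 12 expressed and 24 not expressed in vehicle. No gene that was not expressed has more than 8 CpG (Cyp4x1), and Cyp2e1 and Cyp2f4 are the expressed genes with 1.

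In the comparisons of each dose with vehicle, over the 4 doses together and along dose, 0 of the 29 P450 genes that passed the expression filter were called as changed. Calls rest on the two-sided quasi-likelihood test of edgeR at a p under 0.05 after Benjamini-Hochberg adjustment over 12719 genes. The share of all tested genes called was 0% at 100, 0.0472% at 300, 0.22% at 600 and 0.252% at 900 mg/kg/day, 0.425% along dose and 0.157% over any dose. At an unadjusted p under 0.05 the P450 counts were 3, 3, 1 and 1 at the 4 doses, 2 along dose and 2 over any dose, each of 29. The shares of all genes at that level were 3.4%, 3.65%, 4.79%, 4.99%, 5.09% and 3.53%. The 3 at 100 mg/kg/day were Cyp2d3, Cyp3a23-3a1 and Cyp27b1, which passed the filter through treated litters where they were high. Cyp3a23-3a1 and Cyp27b1 were also among those at 300 mg/kg/day, and Cyp2d3 and Cyp3a23-3a1 were those over any dose. DESeq2 also called 0 P450 genes in each comparison, with 4, 4, 1, 1, 2 and 3 at an unadjusted p under 0.05, and gave an adjusted p to 15 of them at 600, to 23 at 900 mg/kg/day and to all 29 elsewhere. The 29 genes included 14 that were not expressed in vehicle and 12 with a mean count under 10, and the other 23 were not tested. Of the enzymes set aside by the rule, Cyp11a1 and Cyp17a1, which carry cholesterol into androgens, fell at 900 mg/kg/day, from 846 and 349 CPM in vehicle.

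The intervals show the size of change that the data allow for each gene. At 900 mg/kg/day the 95% interval of the log2 fold change lay within 2-fold of vehicle in both directions for 6 of the 15 expressed genes: Cyp20a1, Cyp4f39, Cyp2t1, Cyp2s1, Cyp2d4 and Cyp2r1. This held for 9, 7 and 6 genes at 100, 300 and 600 mg/kg/day. The interval of Cyp2u1, the fifth in vehicle level, passed 2-fold at all 4 doses. The 15 log2 fold changes at 900 mg/kg/day ran from -1.07 (Cyp2f4) to 0.97 (Cyp46a1), with a median of 0.14 against 0.02 over all tested genes. Their medians at 100, 300 and 600 mg/kg/day were -0.06, -0.02 and 0.08, against 0.01, -0.02 and -0.02.

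**Figure D3:**
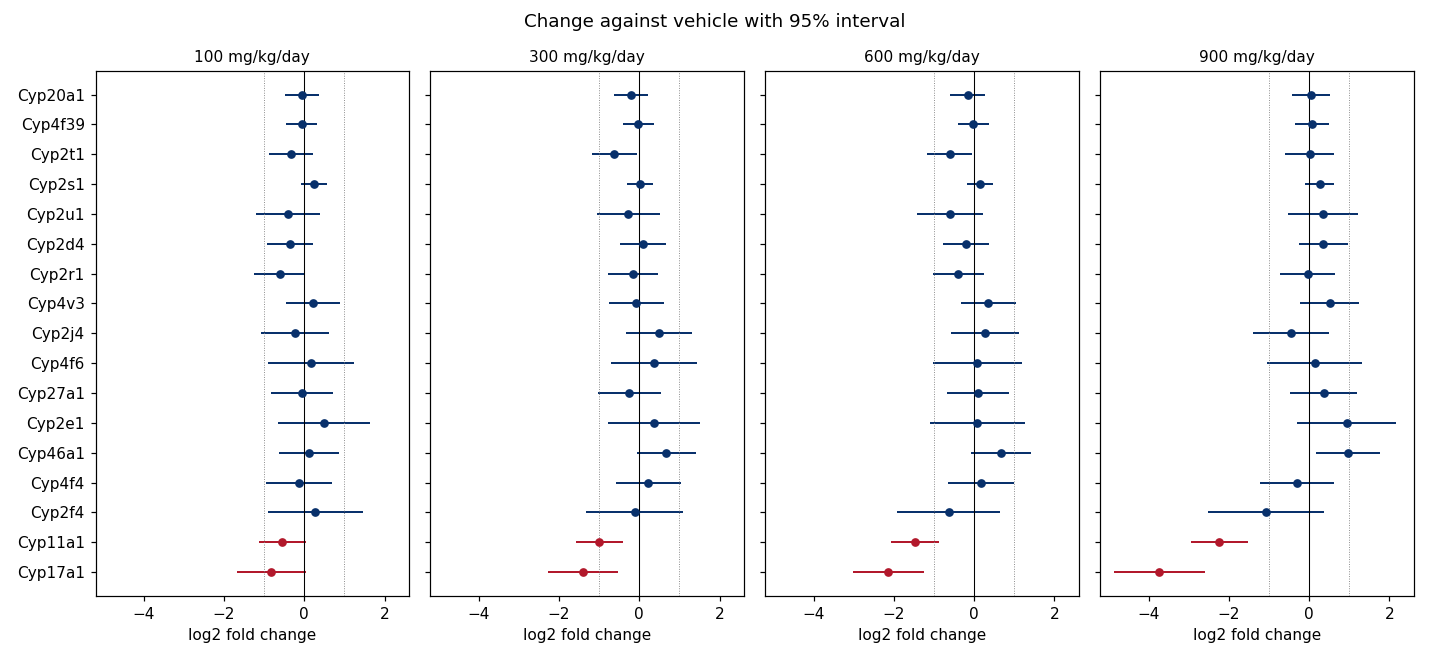
Log2 fold change against vehicle with its 95% interval (x axis) at each DCHP dose (panels) for the 15 expressed P450 genes, in blue, and for Cyp11a1 and Cyp17a1, in red; dotted lines mark 2-fold. All intervals of Cyp20a1 and Cyp4f39 lie between the dotted lines, and those of Cyp11a1 and Cyp17a1 lie below 0 from 300 mg/kg/day up.

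Cyp20a1, an orphan enzyme of unknown substrate (rn7 chr9:61755790-61805124), was the most abundant P450 gene of the set. Its vehicle litters were at 55.9, 52.4 and 42.6 CPM, and the 2 litters at 900 mg/kg/day at 55.2 and 49.0 CPM. The litters between ranged from 34.9 to 63.8 CPM, both at 100 mg/kg/day. Every treated group overlapped vehicle, while both 900 litters lay above those at 300 and 600 mg/kg/day. The log2 fold change at 900 mg/kg/day was 0.05 ± 0.21 (SE; edgeR adjusted p = 0.953).

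Among the other enzymes of family 2, Cyp2s1, which metabolises retinoids and is found in epithelia, had the tightest vehicle litters at 19.5, 19.5 and 19.8 CPM. It stood at 23.6, 24.0 and 21.8 CPM at 100, at 18.7, 20.8 and 20.4 CPM at 300, at 22.4, 21.5 and 21.1 CPM at 600, and at 27.3 and 19.9 CPM at 900 mg/kg/day. Every litter at 100, 600 and 900 mg/kg/day was above every vehicle litter, but by little: the log2 fold change at 900 was 0.27 ± 0.16 (edgeR adjusted p = 0.852). Among the 11035 tested genes at 1 CPM or more in every vehicle litter, all treated litters were above all vehicle litters for 2.47%, 3.7%, 4.41% and 9.37% at the 4 doses. Of the 15 expressed P450 genes the counts were 1 (Cyp2s1), 1 (Cyp46a1), 2 (both) and 2 (both). In the lower direction they were 1 (Cyp2r1), 1 (Cyp2t1), 1 (Cyp2t1) and 2 (Cyp2f4 and Cyp4f4), against 3.32%, 5%, 6.45% and 9.67% of those genes.

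Cyp2t1, an enzyme of little-known function, was at 24.7, 15.03 and 20.7 CPM in vehicle and at 21.9, 12.8 and 13.6 CPM at 100 mg/kg/day. It was at 11.3, 14.6 and 13.5 CPM at 300 and at 14.9, 10.4 and 14.24 CPM at 600 mg/kg/day, then at 22.4 and 18.4 CPM at 900 mg/kg/day. The 300 and 600 litters lay below all vehicle litters, while the 900 litters lay among them. The log2 fold changes were -0.62 ± 0.25 at 300 (unadjusted p = 0.0259) and -0.61 ± 0.25 at 600 mg/kg/day (unadjusted p = 0.0284), neither of which passed in edgeR (adjusted p = 0.9995 and 0.950). At 900 mg/kg/day the value was 0.02 ± 0.27.

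Cyp2u1, which hydroxylates long-chain fatty acids, and Cyp2e1, which oxidises ethanol and other small molecules, were uneven between litters of 1 group. Cyp2u1 was at 22.7, 9.95 and 12.9 CPM in vehicle, at 18.2, 7.49 and 8.67 CPM at 100, and at 21.6 and 17.1 CPM at 900 mg/kg/day, with 6.88 to 13.5 CPM at 300 and 600. Cyp2e1 was at 4.77, 1.09 and 2.86 CPM in vehicle, at 6.92, 1.90 and 3.47 CPM at 100, and at 6.63 and 4.55 CPM at 900 mg/kg/day, with 5.26, 3.68 and 2.10 CPM at 300 and 2.77 to 3.58 CPM at 600. In both genes replicate 1 of vehicle and of 100 mg/kg/day stood with the 900 mg/kg/day litters, and for Cyp2e1 so did replicate 1 at 300 mg/kg/day. The 2 litters at 900 mg/kg/day and replicate 1 of vehicle and of 100 mg/kg/day had the lowest scores on the first principal component of all genes (36.1% of the variance), at -38.2, -22.8, -42.6 and -65.1. The other 10 were at -1.84 to 35.6, replicate 1 at 300 mg/kg/day among them at 15.3. The part of that component in the values was not tested. The log2 fold changes at 900 mg/kg/day were 0.34 ± 0.39 for Cyp2u1 and 0.93 ± 0.56 for Cyp2e1, both with an edgeR adjusted p of 0.852. With the first litters of vehicle and 100 mg/kg/day left out, they were 0.72 ± 0.24 (edgeR adjusted p = 0.0492) and 1.47 ± 0.46 (adjusted p = 0.0402), and both passed, in a fit that called 16.7% of all tested genes. The vehicle litter left out was the one that stood with the 900 mg/kg/day litters in both genes. Leaving it out widens the difference at 900 mg/kg/day by that choice, so these calls are no separate evidence of a change. In the same fit Cyp2u1 also passed over any dose (adjusted p = 0.0250), as did 10.1% of all tested genes.

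Cyp2j4, an epoxygenase of arachidonic acid, was at 2.68, 5.08 and 3.09 CPM in vehicle. It was at 5.59, 5.03 and 4.65 CPM at 300 and at 1.69 and 3.52 CPM at 900 mg/kg/day, and the litters at 100 and 600 mg/kg/day ranged from 1.57 to 5.60 CPM. Both the 300 and the 900 litters overlapped vehicle, though not each other. Cyp2d4, the main CYP2D enzyme of rat brain, was at 3.67, 6.57 and 5.60 CPM in vehicle and at 6.02 and 7.47 CPM at 900 mg/kg/day, with 3.56 to 6.45 CPM between. Cyp2f4, which oxidises naphthalene in the lung, was the lowest of the expressed genes and was at 1.40, 1.35 and 1.5 CPM at 300, at 1.38, 1.09 and 0.370 CPM at 600, and at 0.964 and 0.515 CPM at 900 mg/kg/day. Both 900 litters were below all vehicle litters. Replicate 2 at 100 mg/kg/day (3.17 CPM) was the highest of all 14. The slope along dose was -0.14 ± 0.06 on the log2 scale per 100 mg/kg/day (unadjusted p = 0.0303, edgeR adjusted p = 0.844). With the first litters of vehicle and 100 mg/kg/day left out it was -0.18 ± 0.05 (edgeR adjusted p = 0.0421), in a fit that called 11.8% of all tested genes. Both litters left out were the lowest of their groups for Cyp2f4, so leaving them out steepens the fall.

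**Figure D4:**
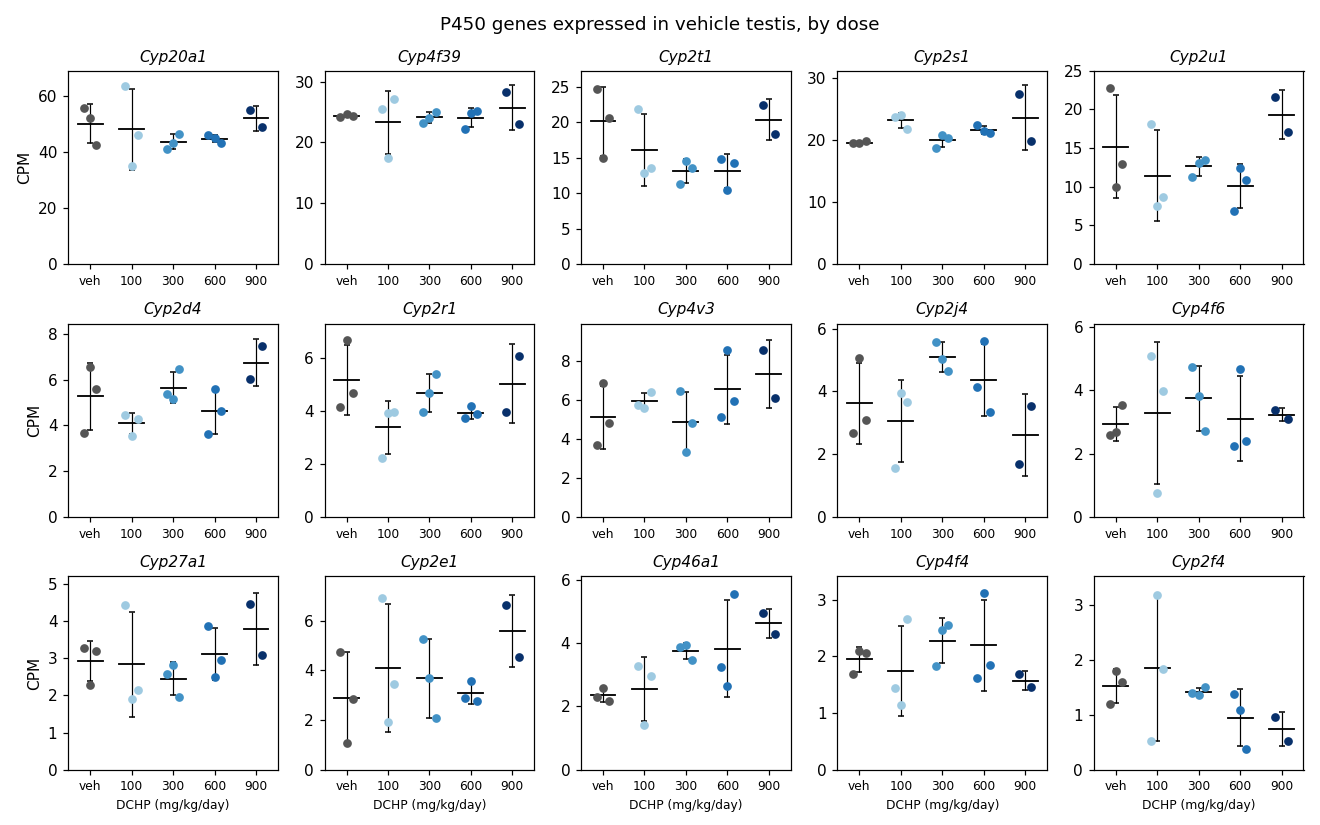
CPM by litter (points) with the group mean (bar) and SD (whisker) for the 15 P450 genes expressed in vehicle, by DCHP dose, with n = 3 litters a group and 2 at 900 mg/kg/day; each y axis starts at 0. Cyp4f39 stayed between 17.4 and 28.3 CPM in all litters, whereas single litters of vehicle and 100 mg/kg/day stand apart for Cyp2u1 and Cyp2e1.

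The fatty acid hydroxylases of family 4 showed no shift with dose that passed. Cyp4f39, the counterpart of human CYP4F22, which hydroxylates the very long fatty acids of skin ceramides, was at 24.2, 24.7 and 24.3 CPM in vehicle and at 28.3 and 23.1 CPM at 900 mg/kg/day, with 17.4 to 27.1 CPM between. Its log2 fold change there was 0.07 ± 0.18 (edgeR adjusted p = 0.919), and replicate 2 at 100 mg/kg/day was its lowest litter (17.4 CPM). Cyp4v3, a fatty acid hydroxylase whose human counterpart is tied to a retinal dystrophy, was at 3.67, 6.87 and 4.80 CPM in vehicle and at 8.55 and 6.10 CPM at 900 mg/kg/day, with 3.32 to 8.55 CPM between. Vehicle and 900 litters overlapped, with a log2 fold change of 0.51 ± 0.33. Cyp4f6 and Cyp4f4, which hydroxylate leukotrienes and fatty acids, lie on chromosome 7 like Cyp4f39 and the unexpressed Cyp4f37. Cyp4f6 was at 2.58, 2.69 and 3.54 CPM in vehicle and at 3.37 and 3.09 CPM at 900 mg/kg/day, with 0.762 to 5.09 CPM between. Cyp4f4 was at 1.69 and 1.46 CPM at 900 mg/kg/day, just under its vehicle litters, with a log2 fold change of -0.31 ± 0.41. By chromosome, 21 of the 52 genes are on chromosome 1 (5 expressed), 9 on chromosome 7 (4 expressed) and 8 on chromosome 5 (1 expressed).

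The enzymes of cholesterol and vitamin D metabolism held the smallest trend p of the set. Cyp46a1, the cholesterol hydroxylase by which brain disposes of cholesterol (rn7 chr6:127243315-127274761), was at 2.28, 2.59 and 2.17 CPM in vehicle and at 3.27, 1.40 and 2.96 CPM at 100 mg/kg/day. It was at 3.87, 3.93 and 3.45 CPM at 300, at 3.25, 2.64 and 5.55 CPM at 600, and at 4.94 and 4.29 CPM at 900 mg/kg/day. From 300 mg/kg/day up every litter was above every vehicle litter, and at 100 mg/kg/day the litters lay on both sides. The slope was 0.10 ± 0.03 on the log2 scale per 100 mg/kg/day (unadjusted p = 0.00565), which did not pass when adjusted over all genes (edgeR adjusted p = 0.387). At 900 mg/kg/day the log2 fold change was 0.97 ± 0.35 (unadjusted p = 0.0171, adjusted p = 0.786), with a 95% interval from 0.20 to 1.73. The largest count behind these values was 50 in 1 library.

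Cyp27a1, the mitochondrial enzyme that hydroxylates the sterol side chain, was at 3.28, 2.29 and 3.20 CPM in vehicle and at 4.46 and 3.09 CPM at 900 mg/kg/day, with a log2 fold change of 0.36 ± 0.37. Cyp7a1, which opens bile acid synthesis in liver, was not tested and reached at most 1.27 CPM. Cyp2r1, which makes the circulating form of vitamin D, was at 4.17, 6.67 and 4.69 CPM in vehicle. It was at 2.221, 3.94 and 3.98 CPM at 100 and at 3.98 and 6.10 CPM at 900 mg/kg/day, with 3.75 to 5.40 CPM at 300 and 600. The 100 mg/kg/day litters were below all vehicle litters (log2 fold change -0.61 ± 0.28, edgeR adjusted p = 0.9999), and those at 900 mg/kg/day lay around them. Cyp24a1, which breaks vitamin D down, stayed at or under 0.645 CPM.

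The genes that liver switches on in response to phthalates and drugs stayed low. The 4 Cyp4a rows did not pass the expression filter, and the ranges over the 14 litters were 0 to 0.306 CPM for Cyp4a1, 0 to 0.600 CPM for Cyp4a8 and 0 to 1.34 CPM for the 2 Cyp4a2 rows. No litter at 600 or 900 mg/kg/day had a Cyp4a gene at 1 CPM. Of the Cyp2b genes, Cyp2b15 reached the highest level of any unexpressed P450 gene, at 5.48 CPM in replicate 1 at 300 mg/kg/day. Its other litters ran from 0 to 2.96 CPM, with 0.496, 0 and 0.572 CPM in vehicle and 1.93 and 0.172 CPM at 900 mg/kg/day. Its group means were 0.356 CPM in vehicle and 1.16, 2.29, 1.27 and 1.05 CPM at the 4 doses. The SDs of the treated groups, 1.23 to 2.77 CPM, exceeded or nearly equalled those means, and no dose passed. Cyp2b1 was at 0.683, 0 and 0.446 CPM in vehicle, at 3.05 CPM in the same litter at 300 mg/kg/day, and at 1.03 and 0.102 CPM at 900 mg/kg/day. Counts of Cyp2b1, Cyp2b2, Cyp2b3, Cyp2c6v1, Cyp3a23-3a1 and Cyp4a2 are not whole numbers in some libraries, and they belong to subfamilies of near-identical genes; how reads were assigned to them is not given in the sources used here, so their values are uncertain.

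Cyp1a2 was at 0.653, 1.90 and 1.43 CPM at 100, at 2.15, 0.246 and 0.750 CPM at 300, at 1.0, 0.311 and 0.185 CPM at 600, and at 0.482 and 0.945 CPM at 900 mg/kg/day. The 900 litters were below its vehicle litters, and the other groups overlapped them. Its slope was -0.12 ± 0.07 on the log2 scale per 100 mg/kg/day (edgeR adjusted p = 0.9999).

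The lowest unadjusted p at the 2 lower doses fell on genes with few counts. Cyp2d3, a liver CYP2D enzyme, was at 0, 0 and 0.114 CPM in vehicle and at 0.131, 1.27 and 1.63 CPM at 100 mg/kg/day. This was 27 counts against 1, a ratio of 30.8 with an exact 95% counting interval from 5.07 to 1260, and the edgeR adjusted p was 0.9999. It was at 0.645, 0 and 0.150 CPM at 300, at 0, 0 and 0.185 CPM at 600, and at 0.241 and 0.172 CPM at 900 mg/kg/day. Cyp3a23-3a1, a PXR-induced Cyp3a gene of rat liver, was at 0, 0 and 0.229 CPM in vehicle, at 0.392, 1.27 and 0.714 CPM at 100, at 1.29, 0.737 and 0.3 CPM at 300, at 0.125, 0.311 and 0 CPM at 600, and at 0.511 and 0.343 CPM at 900 mg/kg/day. Every litter at 100, 300 and 900 mg/kg/day was above every vehicle litter. With vehicle so near 0 a few counts are enough for this, and the share of genes this low for which it holds was not counted. It had 20 counts at 100 and 20 at 300 mg/kg/day against 2 in vehicle, ratios of 11.4 (2.77 to 101) and 12.0 (2.91 to 106). With 1 litter left out the fitted log2 fold changes ran from 2.71 to 5.76 at 100 and from 2.73 to 5.78 at 300 mg/kg/day over 12 fits. The highest came without vehicle replicate 3, which held its only vehicle counts, and the gene was not tested without replicate 2 at 100 or replicate 1 at 300 mg/kg/day. Cyp27b1, which activates vitamin D in the kidney, had 24 and 22 counts against 7, ratios of 3.91 (1.63 to 10.7) and 3.76 (1.55 to 10.4). The unadjusted edgeR p was 0.00545 for Cyp2d3 at 100, 0.00811 and 0.00787 for Cyp3a23-3a1 at 100 and 300, and 0.0387 and 0.0453 for Cyp27b1. None of the 5 passed, with edgeR adjusted p of 0.9999 at 100 and 0.9995 at 300 mg/kg/day. Cyp2d3, Cyp3a23-3a1 and Cyp27b1 had 1, 2 and 7 counts in vehicle and passed the expression filter through treated litters where they were high. That choice leans to higher treated values, so these ratios and p-values are no evidence of a rise.

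The 2 litters in which most unexpressed P450 genes were highest also had more counts on other near-silent genes. Replicate 2 at 100 mg/kg/day, which held high values of Cyp2d3 and Cyp3a23-3a1, was not among them. Its sum over the near-silent genes given below, 347 CPM, was the lowest of all litters. The 37 unexpressed P450 genes summed to 32.0 CPM in replicate 3 at 100 mg/kg/day and 45.8 CPM in replicate 1 at 300 mg/kg/day, against 7.81 to 22.1 CPM in the other 12 litters. The 4244 genes outside the P450 set with a median under 0.3 CPM summed to 1605 and 2534 CPM in those litters, against 347 to 1206 CPM, and 89.5% and 95.7% of them had a count, against 28.4% to 77.7%. Of the 37 genes, 28 had their highest level in 1 of these 2 litters. The litters were singled out after these values were seen, so the count follows partly from that choice. The share of the near-silent genes that were highest in the same litters was not counted. The 4 liver genes, scaled to plain library totals, summed to 15.1 and 3.01 CPM in these 2 litters, against 1.47 to 10.17 CPM in the others. For these liver genes every litter at 100 mg/kg/day (8.97 to 15.1 CPM) was above every litter of the other groups, with 1.86 to 7.27 CPM in vehicle. The part of liver transcripts, or of the 2 litters rich in near-silent counts, in the low P450 values was not tested gene by gene. Without these 2 litters the number of P450 genes called was again 0 in all 6 comparisons.

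**Figure D5:**
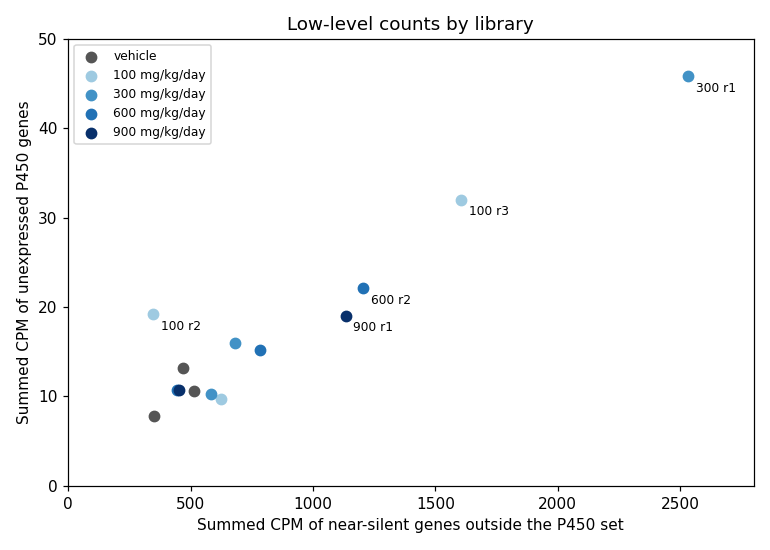
Summed CPM of the 37 unexpressed P450 genes (y axis) against that of 4244 near-silent genes outside the set (x axis), with 1 point for each of the 14 litters, coloured by dose. Replicate 3 at 100 mg/kg/day and replicate 1 at 300 mg/kg/day lie apart at 32.0 and 45.8 CPM, while the other 12 lie at 22.1 CPM or less.

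The partners of P450 enzymes were read from lists of electron donors, heme synthesis, regulators and conjugating enzymes. Of the 9 electron donors tested, 1 fell and none rose along dose. This was Fdx1, with a slope of -0.28 ± 0.03 on the log2 scale per 100 mg/kg/day (edgeR adjusted p = 5.05e-05). Fdx1 was at 2459, 3491 and 2541 CPM in vehicle and at 406 and 509 CPM at 900 mg/kg/day, with no overlap. It serves the steroid-synthesising P450 enzymes as well as Cyp27a1. Por, the reductase for the P450 enzymes of the endoplasmic reticulum, was at 2.18, 0.896 and 1.71 CPM in vehicle. It was at 0.752, 1.11 and 0.900 CPM at 300, at 0.777 to 1.11 CPM at 600, and at 1.69 and 2.15 CPM at 900 mg/kg/day. The lower values at the middle doses overlapped vehicle and did not pass, with log2 fold changes of -0.79 ± 0.48 at 300 and -0.73 ± 0.49 at 600 mg/kg/day (edgeR adjusted p = 0.9995 and 0.950).

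Of the 8 heme synthesis genes, all tested, Alas1 fell along dose and 7 did not pass. Alas1, the rate-limiting enzyme of heme synthesis outside red cells, was at 12.9, 9.56 and 10.9 CPM in vehicle and at 11.4, 9.27 and 10.6 CPM at 100 mg/kg/day. It was at 7.09, 5.53 and 7.05 CPM at 300, at 6.50, 4.20 and 5.18 CPM at 600, and at 4.82 and 5.41 CPM at 900 mg/kg/day. Vehicle and 100 mg/kg/day litters overlapped, and every litter from 300 mg/kg/day up was below all of them. The slope was -0.14 ± 0.02 on the log2 scale per 100 mg/kg/day (edgeR adjusted p = 0.0115), while the single dose of 900 mg/kg/day, at -1.11 ± 0.24, did not pass (adjusted p = 0.105). Fech, the last enzyme of the pathway, was at 296 ± 5.30 CPM in vehicle with a slope of 0.01 ± 0.03. The summed fetal Leydig cell markers, scaled to plain library totals, moved the same way. They went from 2833 to 6183 CPM in vehicle to 917 and 1038 CPM at 900 mg/kg/day. Their part in the Fdx1 and Alas1 slopes was not tested.

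Of the P450 regulators, 18 of 20 listed were in the table and 11 were tested, and with edgeR none of those tested passed in any comparison. PXR (Nr1i2) and CAR (Nr1i3) were too low to be tested, at 0.0993, 0.398 and 0.229 CPM and at 0, 0 and 0.343 CPM in vehicle. At an unadjusted p under 0.05 there was 1 at 600 mg/kg/day and 0 elsewhere. Ppara, the receptor that drives Cyp4a genes in liver, had levels of 2.14 ± 0.30 CPM in vehicle and 2.30 ± 0.33 CPM in the 900 mg/kg/day litters. Of the conjugating and epoxide enzymes 11 of 17 were in the table, all tested, and with edgeR none passed, with 2 at an unadjusted p under 0.05 along dose. These 2 were Ephx1, the microsomal epoxide hydrolase, with a slope of -0.10 ± 0.02 (adjusted p = 0.129), and Gsta1, a glutathione transferase, with -0.12 ± 0.05 (adjusted p = 0.954).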

How the data were processed

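TempO-Seq libraries of 14 litter pools of fetal rat testis were used. The estimated counts per Ensembl gene were deposited by the authors and are not all whole (92.2% to a tolerance of 0.01), so they were rounded for testing. A further table deposited by the authors undoes attenuation (lowered signal of abundant transcripts) for 16 genes, none of them a P450 gene here. Another holds log2 values of 11624 genes, which the authors made from the adjusted counts and which equal edgeR's log2 CPM with a prior count of 1; it served only as a check. The submitters' processing notes name STAR 2.7.8a, Partek, DESeq2 and build rn7, without saying which made which table. The counting tool is not given in the sources used here.

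Genes were filtered with filterByExpr (12719 kept), scaled by TMM and fitted in 1 robust quasi-likelihood model over 14 libraries (edgeR 4.0.16, limma 3.58.1, R 4.3.3; 9 residual degrees of freedom, common biological coefficient of variation 0.232). Standard errors are the absolute log2 fold change divided by the square root of F. CPM uses TMM-scaled totals, except that sums over cell type markers use plain library totals. DESeq2 1.42.0, other filters and scalings, and leaving out litters were alternatives; the one without replicate 3 at 100 and replicate 1 at 300 mg/kg/day was chosen after seeing the data. The fit was tested on simulated data with 50 changed genes for each size of change. At 900 mg/kg/day it recovered 2% of 1.5-fold, 26% of 2-fold and 92% of 4-fold changes. Along dose it recovered 20%, 50% and 94%. Most 2-fold changes at 900 mg/kg/day were thus missed in the simulated data. The changed genes had higher mean counts than the lowest P450 genes tested here, so a 2-fold change can be missed in better expressed genes too. Values per litter, or their range in groups between, are given for the 10 P450 genes with the highest vehicle mean, the 4 with the smallest p along dose and the 4 over any dose, and by range for genes inducible through PPARA, CAR or PXR; the others named were chosen after their values were seen. The members, lists and tests were chosen with earlier results of these data known. RefSeq promoter sequences (GRCr8) were matched by symbol; coordinates on rn7 are start and stop as deposited.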

Additional observations from a re-analysis of the deposited data

How the results depend on the processing

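The number of P450 genes called was 0 in 134 of 137 alternative values, among them each fit that left out 1 litter. The 3 exceptions came with the first litters of vehicle and 100 mg/kg/day left out: 2 at 900 mg/kg/day (Cyp2u1 and Cyp2e1), 1 along dose (Cyp2f4) and 1 over any dose (Cyp2u1, adjusted p = 0.0250, with 10.1% of all tested genes called). The cause was not tested. Those litters lay with the 900 mg/kg/day litters on the first principal component, so these calls depend on that choice of litters. The 15 genes expressed in vehicle became 5 at 5 CPM, and 15 to 16 without a vehicle litter. The filterByExpr filter reads all 14 libraries and kept 29 P450 genes, of which 14 were not expressed in vehicle. Of 524 alternative values for 25 named results 496 kept direction and call, 1 gained a call (the slope of Cyp2f4) and 27 changed sign, all of them slopes that had not passed. The slope of Cyp20a1 (0.00031) was -0.00071 with RLE factors, -0.00068 with DESeq2 and -0.0022 without the 2 litters rich in low counts. With the first litters of vehicle and 100 mg/kg/day left out, Cyp2t1 (-0.0067) was at 0.025, Cyp2r1 (0.0072) at -0.012, Cyp20a1 at 0.0183, Cyp2u1 (0.0263) at 0.0799 and Cyp2j4 (-0.0118) at -0.0521. Leaving out 1 litter moved slopes from -0.0126 to 0.00993 for Cyp20a1, from -0.00261 to 0.0147 for Cyp4f39, from -0.0384 to 0.0131 for Cyp2t1, from -0.000361 to 0.0272 for Cyp2s1, from -0.0108 to 0.0609 for Cyp2u1, from -0.0257 to 0.0310 for Cyp2r1, from -0.0295 to 0.0343 for Cyp2j4 and from -0.0171 to 0.0204 for Cyp4f6. Alas1 and Fdx1 fell along dose in 22 of 22 alternatives each (adjusted p up to 0.0442 and 0.000777). Depth limits the 12 tested genes with mean counts under 10 most: the 95% interval of Cyp2d3 at 900 mg/kg/day ran from -1.58 to 5.83. No paired analysis was possible because nothing in the labels links litters across groups.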
